A study of Drosophila melanogaster with 2 samples.

Results

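The distal peaks described here are Poxn-eGFP binding regions of the *Drosophila melanogaster* embryo whose summit lay more than 2000 bp from every annotated transcription start site (TSS) and within an intron or between genes. They were chosen by position alone from the thresholded peak list that pools both replicates, and they numbered 294 of the 1449 peaks on the chromosome arms. Another 20 distal summits fell in exons and were left out. Chromatin immunoprecipitation followed by sequencing (ChIP-seq) was carried out on whole embryos aged 0 to 24 h of the strain Poxn-GFP, which carries a Poxn-eGFP fusion protein. Chromatin was sonicated to 200 to 800 bp; the sample descriptions give an anti-GFP antibody, whereas the antibody field names Poxn. There was 1 group of 2 biological replicates, and no control group was analysed here, so nothing below compares conditions. Whole embryos mix all tissues and ages of the collection, so the cells in which a region was bound cannot be told apart.

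Poxn (Pox neuro) is a Pax transcription factor that binds DNA through a paired domain, and it is known for giving chemosensory bristles their poly-innervated identity. Many transcription factors bind far from promoters, in long introns and in the spaces between genes, where developmental enhancers of the fly often lie. A distal peak is a region of enrichment and does not by itself name the gene it acts on; genes are given below by position only.

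Candidate regions that did not enter the thresholded list served as background. Of 70644 distal candidates in the ranked list that contains all of these peaks, 294 were in the thresholded list, which is 0.416%. Among candidates with a summit within 500 bp of a TSS, 821 of 19911 were in it, or 4.12%. The peak value used throughout is the signal value of the deposited lists, an enrichment of unstated normalisation, so it ranks peaks within a list, and values from different lists stand side by side as deposited. Read depth is unknown. Intervals on shares are 95% Wilson intervals and cover counting error only, since neighbouring peaks are not independent. Where a count is 0, the limit given is 3 counts of the total in place of a Wilson bound.

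The sequences of the 3 strongest distal peaks on arms X, 2L, 3L and 3R are shown to set out the range of sequence at the top of the list, as 297 bp centred on the summit, from RefSeq's copy of genome Release 6 (dm6), plus strand. Capitals mark any of 3 words of 7 bases on either strand, namely CACTGTA, the related CAGTGTA, or CACTGAG; their counts are given with the other words.

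Tlk (chrX:3742080-3742376): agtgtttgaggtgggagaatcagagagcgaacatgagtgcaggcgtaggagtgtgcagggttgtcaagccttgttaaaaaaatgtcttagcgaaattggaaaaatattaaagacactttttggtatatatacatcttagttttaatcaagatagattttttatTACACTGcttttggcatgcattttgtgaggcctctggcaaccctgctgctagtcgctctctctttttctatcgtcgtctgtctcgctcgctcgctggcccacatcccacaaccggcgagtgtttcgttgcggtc
CG32486 (chr3L:3060641-3060937): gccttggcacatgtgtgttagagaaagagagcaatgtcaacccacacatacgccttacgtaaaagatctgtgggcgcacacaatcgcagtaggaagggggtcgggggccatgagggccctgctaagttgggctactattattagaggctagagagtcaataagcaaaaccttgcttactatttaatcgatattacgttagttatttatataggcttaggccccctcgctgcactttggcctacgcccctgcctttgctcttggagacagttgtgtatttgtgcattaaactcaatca
chinmo (chr2L:1638682-1638978): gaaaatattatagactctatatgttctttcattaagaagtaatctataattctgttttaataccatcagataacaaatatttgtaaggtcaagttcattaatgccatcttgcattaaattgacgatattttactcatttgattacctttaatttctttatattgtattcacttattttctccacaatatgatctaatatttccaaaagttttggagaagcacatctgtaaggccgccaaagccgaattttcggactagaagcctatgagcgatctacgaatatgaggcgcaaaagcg

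Only the Tlk window held such a word, the reverse complement of CAGTGTA 18 bp to the right of the summit. The CG32486 window had 46.8% G+C and the chinmo window 31.3%, so the strongest peaks differed widely in base composition.

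The next 5 windows are the strongest distal peaks on the same arms with CACTGTA or CAGTGTA on both sides of the summit and each copy reading outward, so that its TA end lies farther from the summit. They show an arrangement that was more common in distal peaks than in distal candidates.

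Gug (chr3L:8458154-8458450): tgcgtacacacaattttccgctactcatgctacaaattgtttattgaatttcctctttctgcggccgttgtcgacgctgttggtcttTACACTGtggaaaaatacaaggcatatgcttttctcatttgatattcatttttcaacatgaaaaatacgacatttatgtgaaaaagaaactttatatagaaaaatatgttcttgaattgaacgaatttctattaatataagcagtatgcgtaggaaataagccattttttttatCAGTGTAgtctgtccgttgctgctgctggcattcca
Zdhhc8 (chrX:9352133-9352429): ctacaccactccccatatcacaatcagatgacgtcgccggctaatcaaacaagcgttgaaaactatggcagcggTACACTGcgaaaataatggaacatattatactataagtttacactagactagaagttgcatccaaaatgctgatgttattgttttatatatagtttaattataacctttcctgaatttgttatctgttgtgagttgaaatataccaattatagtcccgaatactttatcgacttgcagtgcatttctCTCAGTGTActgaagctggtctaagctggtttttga
lili (chr3R:24810866-24811162): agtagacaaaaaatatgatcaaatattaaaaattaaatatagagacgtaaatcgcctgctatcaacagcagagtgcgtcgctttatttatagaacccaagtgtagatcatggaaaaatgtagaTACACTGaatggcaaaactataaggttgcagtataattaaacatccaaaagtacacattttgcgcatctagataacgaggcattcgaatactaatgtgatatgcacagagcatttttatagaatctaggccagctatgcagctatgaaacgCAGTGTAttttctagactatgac
Prp16 (chrX:14218015-14218311): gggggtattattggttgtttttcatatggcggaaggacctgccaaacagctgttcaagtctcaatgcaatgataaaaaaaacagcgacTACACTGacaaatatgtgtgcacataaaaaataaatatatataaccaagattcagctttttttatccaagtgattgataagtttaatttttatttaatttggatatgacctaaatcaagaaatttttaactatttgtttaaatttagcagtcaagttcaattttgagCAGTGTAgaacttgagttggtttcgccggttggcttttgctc
aos (chr3L:16480449-16480745): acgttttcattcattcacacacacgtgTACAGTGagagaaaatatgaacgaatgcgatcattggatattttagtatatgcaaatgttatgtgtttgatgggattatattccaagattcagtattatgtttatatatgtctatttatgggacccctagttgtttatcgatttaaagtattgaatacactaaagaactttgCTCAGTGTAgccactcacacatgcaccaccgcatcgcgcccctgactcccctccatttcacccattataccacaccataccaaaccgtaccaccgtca

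In the Gug window the left copy lay 58 bp before the summit and the right copy 116 bp after it. In the lili window these positions were 22 bp before and 129 bp after. In each of the 5 windows the left copy is printed as the reverse complement and the right copy as the word itself.

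The strongest distal peak lay in an intron of Tlk, which encodes Tousled-like kinase, a chromatin assembly kinase. Its summit was 2331 bp from the nearest TSS at chrX:3742126-3742327, with a pooled signal of 391, 169 in replicate 1 and 223 in replicate 2. It ranked 36 among all 1449 peaks on the arms. Distal peaks made up 3 of the strongest 50, 7 of the strongest 100 and 19 of the strongest 200 peaks. Over the whole list they were 294 of 1449, so their share was lower at the top of the list. A second peak of Tlk had a pooled signal of 104.

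An intergenic peak on arm 2R nearest to CG13323 followed with a pooled signal of 379, 223 in replicate 1 and 156 in replicate 2. The peak in an intron of CG32486 had 353, with 154 and 200. The replicate order was therefore opposite in these 2 regions. An intergenic peak 3346 bp from foxo, which encodes the forkhead factor of insulin signalling, reached 275, with 138 in replicate 1 and 129 in replicate 2. An intronic peak of CG12769 reached 274, with 136 and 139. These values lay within a narrow range in both replicates. The peak nearest to CycB, a mitotic cyclin, had a pooled signal of 246 but 87.9 in replicate 1 and 152 in replicate 2, a larger ratio between replicates than in any of the 6 stronger distal peaks.

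Another chinmo peak (238) is described with its cluster. A peak with 233 lay in an intron of Hr3, a nuclear receptor of the ecdysone cascade, and of the overlapping genes CG12912 and CG46321. Gug, the fly Atrophin co-repressor, had a peak with 225, and simj, the p66 subunit of the NuRD complex, one with 214. A peak with 175 lay in introns of both Su(Tpl), an ELL elongation factor, and Mi-2, the NuRD remodelling ATPase. Raf, the MAP kinase kinase kinase, had a peak with 195; Eip63E, a cyclin-dependent kinase, had 194; mnb, the Minibrain kinase, had 179. Nak, the Numb-associated kinase, had 175, and CG9328 had 176. Intergenic peaks nearest to CG13898, Ttc30 and CG43245 had 200, 186 and 185. Every peak among these 20 overlapped a peak in both replicate lists.

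Pooled signal of the distal peaks had a median of 71.4 and quartiles of 60.0 and 92.5, from 2.17 to 391. The median was 89.5 for the 821 peaks within 500 bp of a TSS and 80.2 for the 314 peaks between 500 and 2000 bp away. Distal candidates outside the list had a median of 16.3 and a maximum of 257, and 28 of them had more signal than the median distal peak. High pooled signal alone thus did not place a region in the list. Intronic and intergenic distal peaks had near-equal medians of 71.8 and 70.7.

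A separate set of 11 distal peaks had a signal of 2.17 to 16.3, and the next value above them was 45.6. Each of the 11 overlapped a stronger peak of the list, with summits 199 to 281 bp apart. They lay, named because they form this group, in CG43373, B4, cv-2, schlank, CG42238, Bx, Prosap, lili and osp and at 2 sites of Myo81F. None was in both replicate lists and 4 were in either. These regions share sequence with a stronger neighbour and are counted among the 294.

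**Figure D1:**
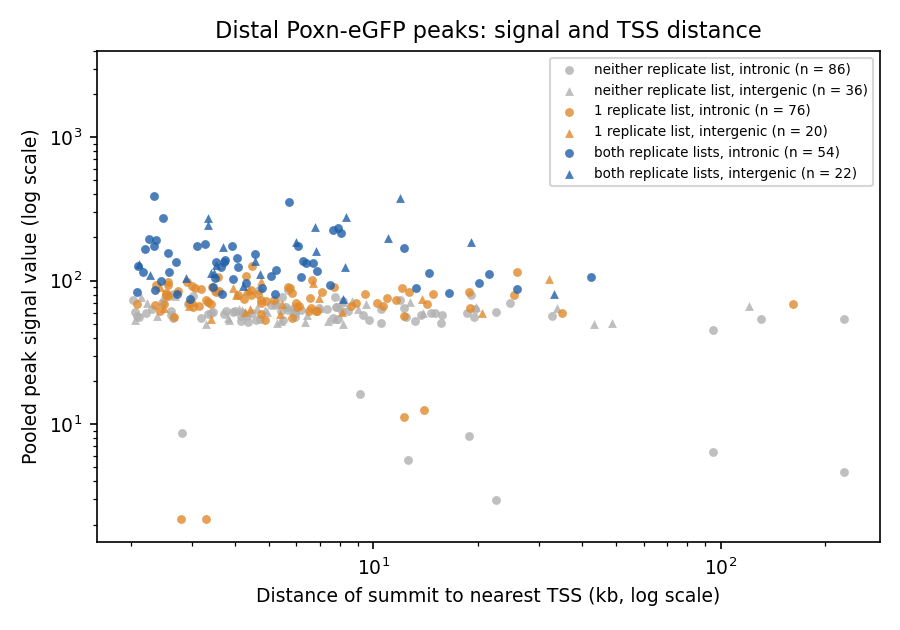
Pooled signal value (log scale) of the 294 distal peaks against the distance of the summit to the nearest TSS (kb, log scale). Colour gives overlap with the replicate lists and shape gives intronic or intergenic position; of the 76 peaks in both lists, 68 have a signal of at least 84.2, and the 11 points at 16.3 or below are the overlapping weak peaks.

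Distal peaks lay nearer to genes than distal candidates did. The median distance to the nearest TSS was 5118 bp, from 2024 to 226881 bp, against 7417 bp for the candidates. Of the distal peaks, 145 were within 5 kb, or 49.3% (43.7 to 55.0%) against 34.0% of candidates. Another 84 lay 5 to 10 kb away (28.6% against 27.5%), 41 lay 10 to 20 kb away (13.9% against 20.1%) and 24 lay farther (8.16% against 18.4%). Median signal was 79.2, 68.4, 65.6 and 62.7 in these 4 distance classes in order. Across the 294 peaks the rank correlation of signal with distance was −0.22, as a description over regions of the same libraries. The members just inside the 2000 bp limit were nearest to CG5968 at 2024 bp and to be and Lrr47 at 2053 bp, with signals of 73.3, 60.8 and 53.4. Just outside it lay peaks nearest to CG12290 at 1998 bp, lmd at 1988 bp and pot at 1969 bp, with 89.4, 99.4 and 81.6.

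Introns held most of the distal peaks. The summit was intronic in 216 of 294, or 73.5% (68.1 to 78.2%), against 60.4% of the distal candidates, and the other 78 were intergenic. Of the 214 peaks in an intron of a protein-coding gene, 124 were in an initial intron, the one next to a transcript's start, which is 57.9% (51.2 to 64.4%) against 38.3% of candidates. Initial introns begin near a TSS, and distal peaks also lay nearer to TSSs; the part of that distance in the difference was not tested. Introns of at least 10000 bp held 62.6% of these peaks and 66.1% of candidates. The nearest TSS belonged to a protein-coding gene for 235 peaks (79.9% against 72.7% of candidates), to a non-coding RNA gene for 49 (16.7% against 22.2%), and to a tRNA gene or a pseudogene for 5 each. A single distal summit lay in an annotated transposable element, or 0.34%, against 2.70% of candidates.

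The arms were not equally represented. The X chromosome held 71 distal peaks, 24.1% (19.6 to 29.4%) against 17.3% of candidates, and 3L held 73, 24.8% against 20.9%. Arm 3R held 45, 15.3% (11.6 to 19.9%) against 26.1%. Arms 2L with 53 and 2R with 52 had shares of 18.03% and 17.7%, near those of candidates at 17.3% and 17.7%. No distal peak lay on the fourth chromosome or on Y, where a count of 0 of 294 allows a share of up to 1.02%; candidates were at 0.0896% and 0.624%.

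In the separate replicate lists, 76 of the 294 distal peaks overlapped a peak of both, by at least 1 bp, or 25.9% (21.2 to 31.1%). Another 44 overlapped a peak of the replicate 1 list only, 52 of the replicate 2 list only, and 122 (41.5%) of neither. Among peaks within 500 bp of a TSS, 45.8% (42.4 to 49.2%) were in both and 20.3% in neither. Signal moved with this difference. In 4 classes of the whole list cut at signals of 63.4, 81.9 and 125, distal peaks were in both lists in 0 of 98, 6 of 90, 30 of 65 (46.2%) and 40 of 41 (97.6%) cases. Peaks within 500 bp of a TSS gave 7 of 170, 7 of 187, 112 of 210 (53.3%) and 250 of 254 (98.4%). In each of the 4 classes the intervals of both kinds of peak overlapped. In the lowest class 0 of 98 allows a share of up to 3.06%.

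Every replicate also has its own ranked list of candidates. Replicate 1 had an overlapping candidate for 293 distal peaks, with a median signal of 37.0, and replicate 2 for 289, with a median of 37.1. Of the 288 peaks with both values, 154 were higher in replicate 2, and the median ratio of replicate 2 to replicate 1 was 1.03. The rank correlation between replicates was 0.425 across these peaks, which were selected from the same libraries, and Pearson's correlation on the log2 scale was 0.51. Peaks in both lists had a median pooled signal of 127, peaks in a single list 73.7, and peaks in neither 60.1. Of the distal peaks, 236 (80.3%) overlapped the conservative list, against 85.5% of peaks within 500 bp of a TSS. The same distance rule on a single list gave 130 distal peaks in the replicate 1 list and 140 in the replicate 2 list.

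**Figure D2:**
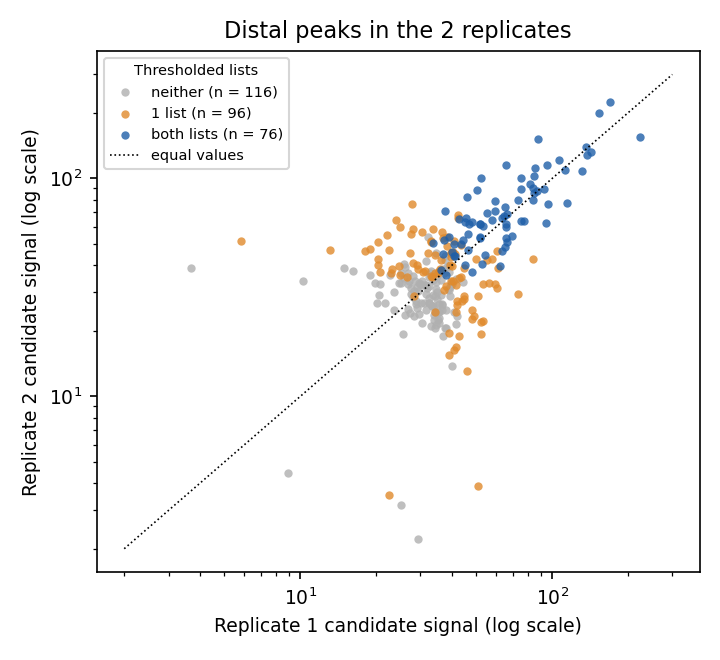
Candidate signal in replicate 2 against replicate 1 (both log scale) for the 288 distal peaks with a value in each. The dotted line marks equal values; peaks of both thresholded lists lie along it at the upper right, and peaks of neither list gather where both values are low.

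Some genes gathered several distal peaks. Of 4372 protein-coding genes with a distal candidate, 231 had a distal peak, or 5.28%, counting an intronic summit for each gene whose intron held it and an intergenic one for the nearest protein-coding TSS. With the replicate 1 list alone this share was 2.66%, and with the replicate 2 list alone 2.79%. chinmo, which encodes a BTB zinc-finger factor of neuronal temporal identity, had 4 intergenic peaks over 10885 bp at chr2L:1632738-1643622. Their pooled signals were 277, 238, 172 and 125. Replicate 1 gave 143, 132, 84.8 and 63.1 and replicate 2 gave 132, 108, 85.5 and 65.7, so the order was the same in both. All 4 were in both lists, and each was nearer to the TSS of a long non-coding RNA gene (CR45695 or CR44603) than to that of chinmo, at 7787 to 18446 bp.

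Raf had 4 intronic peaks with 195, 118, 67.1 and 61.8, of which 2 were in both lists. Hr4, a nuclear receptor of the ecdysone cascade, had 4 intronic peaks with 93.9, 81.3, 61.5 and 55.0. In replicate 1 the Hr4 peaks had 43.4, 24.8, 41.6 and 39.0 and in replicate 2 49.4, 59.8, 24.4 and 15.5, so the replicates ranked them differently and none was in both lists. sbb, which encodes the repressor Scribbler, and Zdhhc8, a palmitoyltransferase gene, also had 4 each, with maxima of 112 and 103. CG43245 (185), CG7560 (96.1) and B4 (88.2) had 4 each too. Myo81F, an unconventional myosin gene in the pericentric part of 3R, had 4 among 1703 distal candidates, the strongest at 54.1, and 2 of them were weak peaks overlapping another. CHES-1-like, a forkhead gene (135), RYBP, which encodes a Polycomb-associated protein (113), Snoo, a Sno homologue (87.0), Pdp1, a bZIP gene of the circadian clock (84.3), and heca, the headcase gene (80.9), had 3 each, given with their highest pooled signal. RYBP had 6 distal candidates in all, peaks included, fewer than any of the other 13 genes with 3 or more. CHES-1-like had 10, Raf and CG7560 20 each, B4 21, Zdhhc8 23, Pdp1 27 and chinmo 43. Hr4 had 50, CG43245 51, sbb 63, heca 82 and Snoo 104. Over all genes 302 of 72168 candidates were in the thresholded list, or 0.418%. Whether several peaks at a gene follow its number of candidates was not tested.

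Clusters of distal peaks with gaps of at most 10000 bp held 102 of the 294, in 43 clusters, and 192 stood alone. No such count is given for candidates, so whether distal peaks cluster more than candidates was not tested. Of the clusters, 9 had 3 or more peaks. The one with most peaks had 5, at chr3L:11416894-11431573 near CG6149 and CG7560, with signals of 52.2 to 96.1 and none in both replicate lists. The cluster at sbb (chr2R:18326503-18338582) had 4 peaks with 80.4 to 112, of which 2 were in both lists, and that at RYBP had 3 with 99.5 to 113. Pairs of overlapping peaks number 10 among neighbouring distal peaks and are counted in these clusters.

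Gene lists by role were read against the same background of 5.28%. The hormone response list had a distal peak at 4 of its 17 genes with a distal candidate (23.5%, 9.56 to 47.3%), namely chinmo, foxo, Hr3 and Hr4. Per candidate, 11 of 558 were in the thresholded list, or 1.97% (1.10 to 3.50%), against 302 of 72168 over all genes, or 0.418%. These 11 came from 4 genes, so they are not 11 separate cases. There were 4 at chinmo, 4 at Hr4, 2 at foxo and 1 at Hr3. By the roles given above, Hr3 and Hr4 are of the ecdysone cascade, foxo of insulin signalling and chinmo of neuronal temporal identity. The lists were chosen with earlier results of these data known, so this excess is a description. The gene share was the same 23.5% in either replicate's list alone. The Notch, EGFR and Wnt signalling list had peaks at 5 of 20 genes and 8 of 508 candidates, or 1.57% (0.80 to 3.08%). By the roles given next, these genes are of EGFR, Dpp or JNK signalling, so none stands for Notch or Wnt. They were shn, a zinc-finger factor of Dpp signalling, with 2 peaks and at most 91.0; aos, the secreted EGFR inhibitor Argos, with 89.0; puc, the JNK phosphatase, with 2 and at most 78.8; and pnt and aop, the ETS activator and repressor downstream of EGFR, with 63.3 and, from 2 peaks, at most 61.6. None of these 5 genes' strongest peaks was in both replicate lists, and a single replicate list gave a peak at 2 of 19 genes in replicate 2 and at 2 of 20 in replicate 1.

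Sense organ, neuroblast, segmentation and appendage genes follow, of which the first 3 lists had gene shares whose intervals held the 5.28% over all genes. The list of sense organ and asymmetric division genes had 1 of 13 (7.69%, 1.37 to 33.3%), a peak with 63.3 in an intron of ct, the homeobox gene cut of external sense organs, which was in neither replicate list. The neuroblast list had 1 of 21 (4.76%, 0.846 to 22.7%), a peak with 59.5 at nub, a POU factor. Segmentation and homeotic genes had 2 of 25 (2.22 to 24.97%), slp2 (84.9), a forkhead gene, and hry (70.6), the hairy gene. The appendage list had 5 of 23 (21.7%, 9.66 to 41.9%). These were hth (82.4), bi (79.8), bab2 (79.0), bab1 (59.2) and rn (56.8), all intronic and all genes of transcription factors of leg, wing or antenna patterning; only the hth peak was in both lists. Per candidate the appendage list had 5 of 967, or 0.517%, near the 0.418% over all genes. This gene share was 4.35% in the replicate 2 list and 8.70% in the replicate 1 list.

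Muscle genes had 2 of 18 (11.1%, 3.10 to 32.8%), Zasp52 of the Z-disc (70.4) and the factor Mef2 (52.2). The list for trachea, gut, epidermis and blood had 3 of 18 (16.7%, 5.84 to 39.2%), vvl (65.0), ken (58.4) and ush (54.9). They encode a POU factor, a BTB factor and the FOG homologue. Axon guidance genes had 2 of 25 (2.22 to 24.97%), side (127), an immunoglobulin-family guidance gene, and caps (61.2), a leucine-rich repeat gene. Per candidate this was 2 of 1542, or 0.13% (0.0356 to 0.472%). Muscle genes had 0.687% (0.189 to 2.47%) per candidate, and the trachea, gut, epidermis and blood list 0.872% (0.297 to 2.53%). Each of these per-candidate intervals held the 0.418% over all genes. The other lists had none. For RNA-binding proteins this was 0 of 1255 candidates, which allows up to 0.239%, and 0 of 16 genes, which allows up to 18.75%. Ion channel and synapse genes had 0 of 632 candidates, which allows up to 0.475%, and 0 of 19 genes, which allows up to 15.8%. Both gene limits hold the 5.28% over all genes, and candidates of the same gene are not separate cases. For chromatin and insulator factors it was 0 of 12 genes and 0 of 90 candidates, which allows up to 3.33%, so this list is too small to read.

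**Figure D3:**
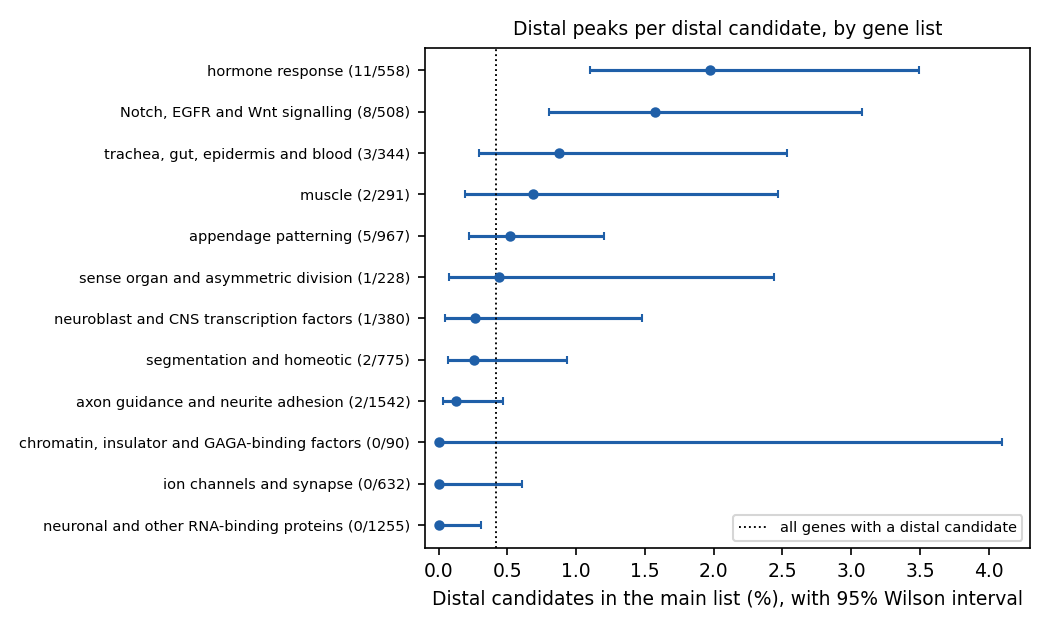
Share of distal candidates assigned to each gene list that were in the thresholded list (%), with 95% Wilson intervals; peaks and candidates are counted in brackets. The dotted line is the share over all genes, 0.418%. The hormone response (1.97%) and the Notch, EGFR and Wnt (1.57%) lists have intervals wholly above it, and RNA-binding proteins (0%) wholly below. In the Notch, EGFR and Wnt list the peaks were at genes of EGFR, Dpp and JNK signalling. In the hormone response list 4 peaks were at chinmo, 4 at Hr4, 2 at foxo and 1 at Hr3. Lists were chosen with earlier results of these data known, and the intervals count candidates of the same gene as separate cases.

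Base composition separated distal peaks from distal candidates. In windows of 100 bp to each side of the summit the median G+C was 36.3% for distal peaks, 44.3% for candidates and 33.8% for peaks within 500 bp of a TSS. The 1470 distal candidates of highest signal outside the list had 46.8%. Their signals began at 39.4 and had a median of 43.3, against 71.4 for the distal peaks, so they were not matched to the peaks in signal. Around distal summits the G+C content fell from 45.6% at the bin centred 163 bp to the left to 34.7% just right of the summit and returned to 45.4% at 162 bp on the right. Strong candidates lacked such a dip and stood at 46.0% at the same place. Within the distal peaks, G+C was lower where the replicates had both called the peak, with medians of 34.3% in both lists, 36.1% in a single list and 38.3% in neither, and its rank correlation with signal was −0.25. Soft-masked repeat sequence took 20.5% of the distal windows on average and 17.6% of candidate windows.

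**Figure D4:**
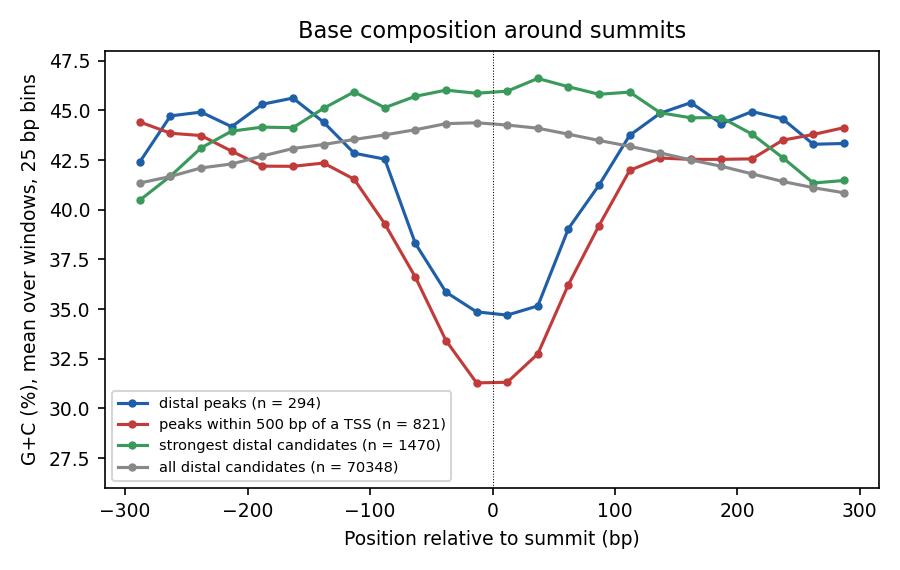
Mean G+C content (%) in 25 bp bins by position relative to the summit (bp) for distal peaks, peaks within 500 bp of a TSS, the 1470 strongest distal candidates and all distal candidates. Both kinds of peak dip at the summit, to 34.7% in the distal peaks, whereas the candidates do not.

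Known factor words were counted on both strands of the same windows. GTCACGC, a core of the paired-domain sites of vertebrate Pax factors, was in 2 of 294 distal windows (0.68%, 0.187 to 2.45%), 1.11% of distal candidates and 1.46% of windows within 500 bp of a TSS, so it was not detectably more common at this number of peaks. The homeodomain core TAATTA was in 15.6% (11.9 to 20.2%) against 11.98%. The TATA box TATAAAA was in 12.9% (9.56 to 17.2%) against 6.66%, and the adenine run AAAAAAAA in 18.4% (14.4 to 23.2%) against 11.2%. These 3 words hold no G or C, and the peaks had less G+C; its part in these shares was not tested. CGATA, a short BEAF-32 site, was in 22.8% against 18.2%, and GATAAG, a word of zinc-finger factors such as Pannier, in 9.52% against 7.18%, with intervals of 18.4 to 27.9% and 6.67 to 13.4%. Single replicates moved some of these differences: without replicate 2 the GATAAG difference of 2.34 percentage points was 8.18, and without replicate 1 that of TAATTA, 3.67, was 0.35 and that of CGATA, 4.63, was 9.14.

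Candidates held several words more often. The Polycomb recruiter word GCCATNTT of pho was in 1.70% (0.729 to 3.92%) against 5.17%, and the Sox word ACAATGG in 1.36% (0.53 to 3.45%) against 3.85%, both with intervals below the candidate share; without replicate 2 the GCCATNTT difference of −3.46 percentage points was −1.26. The Su(H) word GTGGGAA of Notch signalling was in 1.02% against 2.93%, the E-box CAGCTG in 6.46% against 8.91%, and the CA repeat ACACACA in 7.48% against 9.81%, with intervals that held the candidate share. The DRE word TATCGATA, bound by Dref and overlapping CGATA, was in 3 windows or 1.02% (0.348 to 2.96%), against 0.32% of candidates and 4.26% of windows within 500 bp of a TSS, and its difference from candidates turned to −0.295 percentage points without replicate 2. GAGAGAG (2.72% against 2.59%), TGCATAC of su(Hw) (3.06% against 2.88%), CAGGTAG of zld (1.36% against 0.90%), ACCGGTT of grh (0.68% against 0.654%), TGACTCA of AP-1 (2.72% against 1.60%), TTTATGG of cad (5.44% against 6.499%), GCAGGTG of proneural factors (1.70% against 2.39%) and TGTGGTT of Runt (2.04% against 2.95%) had intervals that held the candidate share. So did GGTGGCGC of CTCF and GGTCACACT of M1BP, each found in a single window.

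Over all 8192 words of 7 bases, counted with their reverse complement, 9 of the 10 with the largest excess in distal peaks held only A and T, led by AAAATAT in 27.9% against 12.2%, AAAAATA in 28.2% against 14.3% and AAATATT in 23.8% against 10.3%. AGAAAAA, in 19.7% against 10.05%, was the exception. Those with the largest deficit were GGCCAAA, in 1.36% against 8.21%, TGGCCAA, in 2.72% against 8.60%, and CTGGCCA, in 0.68% against 5.997%, which overlap around GGCC. Strong candidates held these 3 in 8.91%, 8.91% and 5.85% of windows. Peaks within 500 bp of a TSS held them in 2.80%, 2.31% and 1.83%. Those peaks held AAAATAT in 32.6%, AAAAATA in 33.4% and AAATATT in 22.8%, so these traits were not particular to distal peaks.

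Ranked by ratio instead, a choice made after their values were seen, the leading words among those in at least 5% of distal peaks were CACTGTA, in 33 windows or 11.2% (8.10 to 15.3%) against 1.71% of candidates, and the overlapping ACTGTAC, in 9.18% against 1.42%. The excess of CACTGTA, 9.51 percentage points, was 14.8 without replicate 1 and 12.2 without replicate 2. CAGTGTA, which differs from CACTGTA by C3G counted from the 5′ end, was in 33 windows or 11.2% against 1.90%. Lower among the 10 leading words stood ACAGTGG, with 11.6% against 2.65%, and CACTGAG, with 8.50% against 2.18%. The other leading words overlapped those named here or occurred in fewer peaks. The reverse complement of ACAGTGG overlaps CACTGTA. Of the 35 distal copies of CACTGTA, 16 had C just before the word and so also held ACAGTGG on the other strand. ACAGTGG is therefore not counted as a separate site. Without replicate 1 the excess of ACAGTGG, 8.91 percentage points, was 16.5 and that of CACTGAG, 6.32, was 2.71. Strong distal candidates held CACTGTA in 2.86% and CAGTGTA in 2.65%, so their shares were nearer to those of all candidates than to those of the peaks. The words were chosen on the distal peaks, whose shares are therefore a description; in the 821 peaks within 500 bp of a TSS, which the choice did not use, the shares were 6.70% and 5.24%, against 1.94% and 1.71% of candidates at that distance. The 314 peaks between 500 and 2000 bp away, also not used, held them in 12.7% and 6.05%. ACAGTGG was in 9.01% of peaks within 500 bp of a TSS and in 16.6% of those between 500 and 2000 bp away. CACTGAG was in 3.53% and 3.50% of these peaks, in the same order.

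Position and strand of CACTGTA and CAGTGTA followed the summit. The outward direction and the zone of 150 bp were not planned beforehand, so the distal values here and below are a description. Within 150 bp of the summit the distal peaks held 104 copies, of which 87 (83.7%) read outward: 48 were forward copies on the right and 39 were reverse copies on the left. The median position was 84 bp from the summit. In candidates 49.1% of 3988 copies read outward, and in the strong candidates 61.1% of 131. Peaks within 500 bp of a TSS had 82.6% of 167 copies outward and peaks between 500 and 2000 bp away 89.5% of 95, so the orientation was shared by all distance classes of the list. Beyond 150 and up to 300 bp from distal summits there were 12 outward and 4 inward copies. CACTGAG read towards the summit in 29 of 36 copies, against 1210 of 2418 in candidates. It did so in 17 of 20 copies between 500 and 2000 bp from a TSS, 34 of 48 within 500 bp and 57 of 88 in strong candidates. The reverse complement of CACTGAG can overlap CAGTGTA, as in the printed Zdhhc8 and aos windows, which fixes the opposite strand. Of the 30 distal copies that overlapped neither outward word, 24 read towards the summit, against 1089 of 2182 in candidates. Such copies did so in 11 of 14 cases between 500 and 2000 bp from a TSS and in 22 of 36 within 500 bp.

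**Figure D5:**
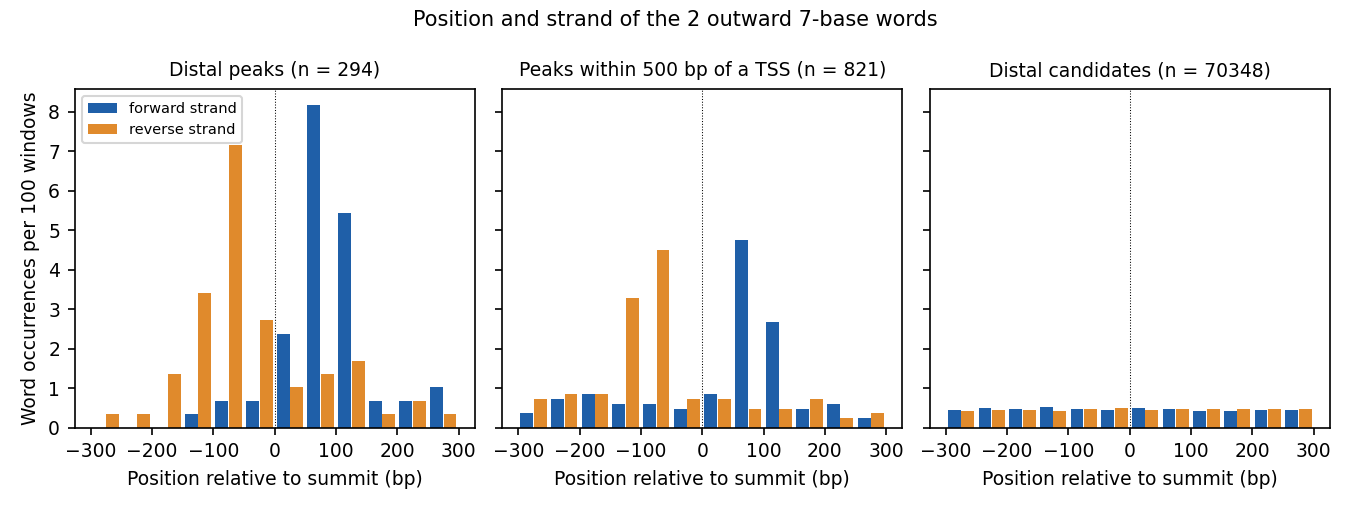
Copies of the 2 words per 100 windows by position relative to the summit (bp), forward and reverse strand side by side, for distal peaks, peaks within 500 bp of a TSS and distal candidates. In the distal peaks the forward copies (48 within 150 bp) stand to the right and the reverse copies (39) to the left of the summit, whereas candidates are flat on both strands.

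At least 1 outward copy within 150 bp occurred in 71 of 294 distal peaks, or 24.1% (19.6 to 29.4%), against 2.67% of candidates, 4.76% of strong candidates and 15.2% of peaks within 500 bp of a TSS. Peaks between 500 and 2000 bp from a TSS had it in 69 of 314, or 22.0% (17.7 to 26.9%), close to the distal share. None of the 11 weak overlapping peaks was among them, and without those the share was 25.1%. In 3 equal classes of pooled signal, from strongest to weakest, the count was 35, 21 and 15 of 98 each (35.7%, 21.4% and 15.3%). Peaks with an outward copy had a median signal of 84.0 and were in both replicate lists in 35.2% (25.1 to 46.8%) of cases; the 223 without had 69.1 and 22.9% (17.8 to 28.8%). The intronic share was nearly equal, 73.2% and 73.5%.

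Outward copies on both sides of the summit, as in the printed Gug, Zdhhc8, lili, Prp16 and aos windows, occurred in 15 distal peaks (5.10%, 3.12 to 8.25%), in 50 of 70348 candidates (0.0711%) and in 12 of 821 peaks within 500 bp of a TSS (1.46%). Between 500 and 2000 bp from a TSS they occurred in 14 of 314 peaks (4.46%, 2.67 to 7.34%), close to the distal share. The copies nearest to the summit were 136 to 189 bp apart, with a median of 158 bp, and in 13 of the 15 both sides carried the same word. The other 10 regions were at sky, slp2, Snx27, Hr4, siz, CG45263, rols, CG31871, hiw and Snoo, named because they form this group. Of the 15, 3 were in both replicate lists. The search zone of 150 bp on each side bounds the spacing.

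Sequence beside the words also differed. Of the 35 copies of CAGTGTA in the distal windows, 25 (71.4%) had at least 3 T among the 4 bases from 7 to 4 before the word, against 33.4% of 1367 copies in candidates and 47.7% of 44 in peaks within 500 bp of a TSS. CACTGTA was followed by C in 20 of 35 copies (57.1%), against 30.8% of 1239 in candidates and 24 of 60 near a TSS. CACTGTA followed by C contains ACTGTAC, itself a leading word chosen on the distal peaks. Neither flanking feature was planned beforehand, so the distal shares are a description.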

How the data were processed

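Peak lists on dm6, per the labels, were deposited for each replicate and for both replicates together. In each, the authors gave a score and a signal value per peak, and in the ranked lists a −log10 global IDR; no source used here gives their normalisation, nor an aligner, a peak calling program or an IDR cut-off. The lists hold no counts, so read depth is unknown. The thresholded list pooling both replicates (1488 peaks) was the main set. TSSs came from all transcripts of 18277 Ensembl BDGP6 gene models on the arms, with transposable elements left out; sequence came from the RefSeq copy of the same genome release. Shares carry 95% Wilson intervals; no test was possible with 1 group of 2 replicates. Genes were named if they were assigned to the 20 strongest peaks or had 3 or more peaks. Up to 4 members with a peak were named per list. The genes rn and aop, next in order in their lists, were named after their values were seen. Peaks by the distance limit, 22 fixed words and some of the 10 most different 7-mers each way were also named. Members and lists were chosen with earlier results of these data known. The 12 gene lists held 273 symbols, of which 2 were not matched. Alternatives changed the list, replicate, distance, window, overlap and gene assignment. Functions were tested on simulated data. Tools were Python 3.11.15, numpy 2.4.6, pandas 2.3.3, scipy 1.17.1 and matplotlib 3.10.9.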

Additional observations from a re-analysis of the deposited data

How the results depend on the processing

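No paired analysis was possible because there is 1 group and no result comes from a test between groups. The number of distal peaks, 294, fell to 130 to 140 when only one replicate's list was used, to 72 at an IDR of at most 0.001 and to 149 at a distance over 5000 bp. The excess of CACTGTA over candidates, 9.51 percentage points, became 1.55 in windows of 50 bp on each side, whereas its copies within 150 bp had a median position of 87 bp, and 12.2 to 14.8 by single replicate. The share of genes with a distal peak, 5.28%, became 4.28% with the nearest protein-coding TSS and 2.66 to 2.79% by single replicate. The share with an outward word, 24.1%, was 30.0% by either replicate alone and 31.9% at the stricter IDR, settings added after the data were seen. By single replicate, median G+C ranged from 34.8 to 35.3% and the GTCACGC difference from −0.41 to −0.33 percentage points. The TATCGATA difference, 0.70 percentage points, reversed to −0.295 without replicate 2 and was 0.418 without replicate 1; it rests on 3 windows. Gene lists with 1 to 3 peaks often lost them by single replicate, while the hormone response share stayed at 23.5% by either. Where no other statement is made, the cause of a change was not tested.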
